A study of Caenorhabditis elegans with 4 samples.

Results

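The UDP-glucuronosyltransferase (UGT) genes of *Caenorhabditis elegans* were followed in RNA-seq of ketamine-treated and control animals. Members were the protein-coding rows of the gene count table whose WormBase symbol starts with ugt-, which gave 67 of the 46643 rows and of the 20528 protein-coding rows. All 67 carried the UDPGT domain label in the authors' annotation. Whole wild-type (N2) animals were synchronised as L1 larvae, grown at 25 °C on plates with 2.5 mM ketamine or with M9 buffer, the vehicle (0 mM), and harvested at adult day 1. The study reported slower development under ketamine, with mixed larval and adult stages at a time when every control was adult. An effect of this delay and another effect of the drug cannot be told apart here. There were 2 control libraries and 2 ketamine libraries, both groups had the N2 genotype, and the sources used here do not say whether the libraries of a group came from separate cultures, so p-values measure only the spread between these libraries, which may be technical. The comparison asked which UGT genes differed in transcript level between animals grown with and without the drug.

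UGT enzymes transfer a sugar from a UDP-sugar donor to small lipophilic molecules, which makes them more soluble and easier to export. This conjugation is the second phase of drug metabolism, and it follows oxidation by cytochrome P450 enzymes. Mammalian UGTs mainly use UDP-glucuronic acid, whereas nematodes are known for attaching glucose to foreign compounds, and the intestine is a main site of detoxification in the worm. The worm family is large and many of its genes sit next to each other on a chromosome. The substrates of most worm members are not known, so they are described here by level, position and response.

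Raw counts summed to between 29192110 and 43419202 per library. Control 1 stood apart from the other 3 libraries. Across tested genes its log2(CPM + 1) correlated at 0.970 with control 2 and at 0.963 with each ketamine library, whereas control 2 correlated at 0.988 with each ketamine library and the ketamine libraries at 0.995 with each other. The members called without control 1 are listed below, and fold changes without it are given for some genes. CPM denotes counts scaled to library size with TMM factors, and FPKM denotes the deposited fragment level per length of gene and per library. Only FPKM was used to compare levels between genes. In RNA of whole animals, fewer cells of a type and less RNA per cell cannot be told apart.

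Of the 67 UGT genes, 64 had at least 10 counts in at least 2 libraries and were tested, and 11 of these were at least 2-fold higher under ketamine with both ketamine libraries above both controls. They were *ugt-34*, *ugt-10*, *ugt-32*, *ugt-33*, *ugt-18*, *ugt-67*, *ugt-36*, *ugt-25*, *ugt-21*, *ugt-66* and *ugt-9*. The same pattern was met by 4.02% of the 15793 tested genes and by 17.2% of the tested UGT genes. A single member, *ugt-26*, was at least 2-fold lower with both ketamine libraries below both controls, which is 1.56% of the tested members against 3.18% of all tested genes. For the family as a whole, the median log2 fold change of the 64 members was −0.09, beside −0.01 over all tested genes, and 44 members lay within 1.5-fold of the control.

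None of these differences passed the main test. With p-values adjusted over all tested genes (Benjamini-Hochberg), edgeR's quasi-likelihood test, at an adjusted p under 0.05 and at least 2-fold, called 0 UGT genes higher and 0 lower, where 0.095% of all tested genes were called higher and 0% lower. At an unadjusted p under 0.05 and at least 2-fold, edgeR gave the same 11 genes higher and *ugt-26* lower, beside 2.05% of all tested genes higher and 1.63% lower. DESeq2 called 9 of the 11 higher at an adjusted p under 0.05, all but *ugt-18* and *ugt-67*, and 0 lower, where it called 0.69% of all tested genes higher and 0.146% lower. With 2 libraries against 2, an exact permutation test of a single gene cannot give a two-sided p below 0.33. Calls therefore rest on the spread that the tools share between genes.

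**Figure D1:**
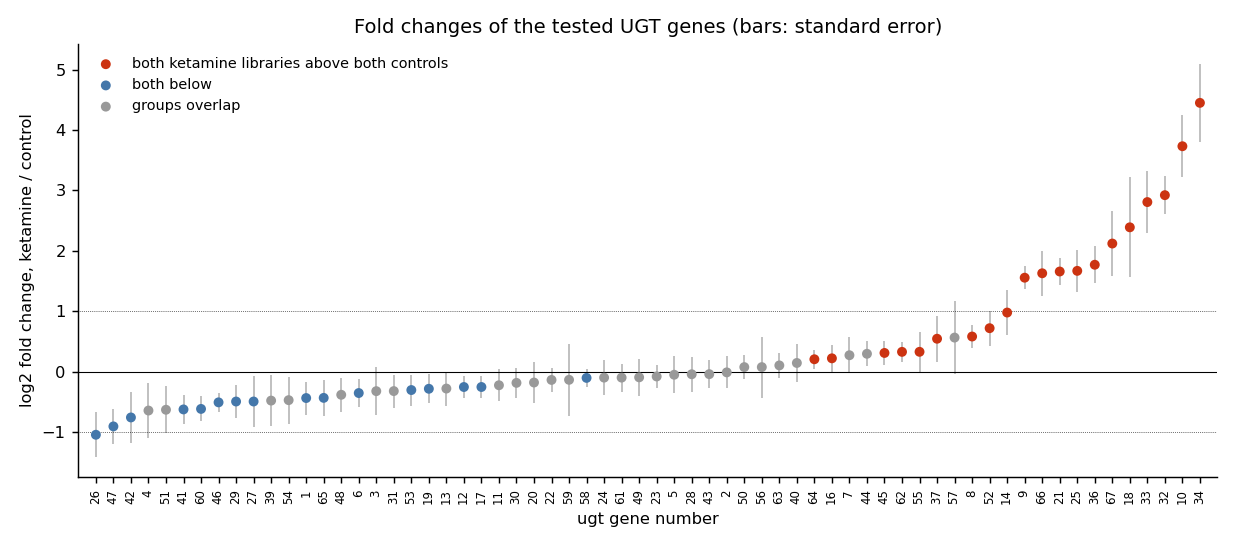
Log2 fold change (ketamine over control, y axis) of the 64 tested UGT genes in order of size (x axis, ugt gene number), from 2 libraries per group, with bars of 1 standard error; red points have both ketamine libraries above both controls, blue points both below, and dotted lines mark 2-fold. Most points lie close to 0, 11 red points lie above the upper dotted line and 1 blue point, *ugt-26*, lies below the lower one.

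Without regard to the size of the difference, both ketamine libraries lay above both controls in 20 of the 64 tested members (31.2%, against 23.1% of all tested genes) and below both in 16 (25%, against 20.6%), and the groups overlapped in 28. The log2 fold change was above 0 in 27 members and under 0 in 37. The higher members thus formed a short tail of large differences, while the 53 other tested members had a median log2 fold change of −0.14. These 53 are what was left after the higher genes were taken out, which lowers their median.

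The change of rank was largest for *ugt-32* (F47C10.6), a gene on chromosome V (V:3841859-3844007, minus strand) with no other member within 20 kb. It held 506 and 240 counts in the controls against 2058 and 2166 under ketamine, or 11.0 and 6.86 CPM against 60.4 and 75.0. Both ketamine libraries were several times above the higher control, and the difference was 7.58-fold (log2 2.92 ± 0.31 SE, edgeR adjusted p = 0.137, DESeq2 adjusted p = 2.2e-13). Among the 67 members its FPKM ranked 33 and 38 in the controls against 7 and 5 under ketamine.

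*ugt-25* (C10H11.3, I:4731604-4735279, plus strand) was the most abundant of the 11 genes. Its level was 37.5 and 19.3 CPM in the controls against 87.7 and 93.3 CPM under ketamine, a 3.18-fold difference (log2 1.67 ± 0.35 SE, edgeR adjusted p = 0.677, DESeq2 adjusted p = 0.0045). It moved from rank 14 and 18 by FPKM to rank 3 and 2. Control 1 lay between control 2 and the ketamine libraries, and the log2 fold change was 2.20 without control 1 and 1.28 without control 2.

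*ugt-66* (C23G10.6, III:6192121-6194560, minus strand) had the same arrangement, with 25.1 and 12.3 CPM in the controls against 60.7 and 55.0 CPM. The 3.09-fold difference (log2 1.63 ± 0.38 SE, edgeR adjusted p = 0.748, DESeq2 adjusted p = 0.013) became a log2 fold change of 2.21 without control 1 and 1.21 without control 2. Both estimates were higher than 2-fold.

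The tightest libraries were those of *ugt-9* and *ugt-21*. *ugt-9* (T19H12.1, V:4896048-4897962, plus strand) was at 13.9 and 12.7 CPM in the controls against 40.0 and 38.1 CPM under ketamine, 2.94-fold higher (log2 1.56 ± 0.19 SE, edgeR adjusted p = 0.201, DESeq2 adjusted p = 4.8e-06). *ugt-21* (C33A12.6, IV:9500311-9502568, plus strand) was at 5.64 and 5.43 CPM against 17.2 and 17.8 CPM, 3.16-fold higher (log2 1.66 ± 0.22 SE, edgeR adjusted p = 0.239, DESeq2 adjusted p = 8.1e-06). In both genes the 2 libraries of each group lay closer together than in the other 9, apart from the low controls of *ugt-10*. Leaving out any 1 library kept the log2 fold change between 1.498 and 1.595 for *ugt-9* and between 1.633 and 1.684 for *ugt-21*.

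The remaining 6 of the 11 genes were expressed at a low level without the drug. *ugt-34* (F29F11.2, V:10654424-10656976, minus strand) had 18 and 3 counts in the controls against 201 and 147 under ketamine. Its controls differed from each other several-fold, but neither came near the ketamine libraries. The fitted difference was the largest of the family at 21.9-fold (log2 4.45 ± 0.65 SE, edgeR adjusted p = 0.302, DESeq2 adjusted p = 8.8e-10), and the ratio of the summed counts, scaled to library size, was 21.4 (exact 95% interval 13.7 to 34.9, counting error only). The log2 fold change was 5.92 without control 1 and 3.81 without control 2.

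*ugt-10* (T19H12.11, V:4898217-4900082, minus strand) had 4 and 3 counts in the controls against 34 and 40. It was the only tested member with fewer than 10 counts in both controls, so it entered the test through the ketamine libraries alone, and *ugt-34*, *ugt-18* and *ugt-67* reached 10 counts in 1 control only. Its scaled count ratio was 13.6 (exact 95% interval 6.29 to 35.1, counting error only), the fitted log2 fold change was 3.73 ± 0.51 (SE, edgeR adjusted p = 0.252), and the DESeq2 adjusted p was 0.0047. Even under ketamine its level stayed low, at 0.613 and 0.849 FPKM.

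*ugt-33* (C35A5.2, V:10493406-10496468, plus strand), an isolated gene, had 67 and 26 counts in the controls against 187 and 291 under ketamine. In CPM this was 1.45 and 0.743 against 5.49 and 10.1, so that both groups were spread, but without overlap. The log2 fold change was 2.81 ± 0.51 (SE, edgeR adjusted p = 0.527, DESeq2 adjusted p = 3.2e-05).

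*ugt-36* (F09G2.6, V:7167009-7169205, plus strand) had 58 and 51 counts against 174 and 120, or 1.26 and 1.46 CPM against 5.11 and 4.16. This was the only one of the 11 genes in which control 2 lay above control 1. The difference was 3.41-fold (log2 1.77 ± 0.30 SE, edgeR adjusted p = 0.462, DESeq2 adjusted p = 0.0054).

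*ugt-18* (ZC443.5, V:12820265-12822758, plus strand) and *ugt-67* (H23N18.4, V:4901374-4903010, plus strand) were the least certain. *ugt-18* had 42 and 5 counts in the controls against 121 and 62 under ketamine, and its log2 fold change of 2.39 ± 0.82 (SE, edgeR adjusted p = 0.748, DESeq2 adjusted p = 0.235) ranged from 4.26 without control 1 to 1.65 without control 2. *ugt-67* had 27 and 8 counts against 59 and 55, with a log2 fold change of 2.12 ± 0.54 (SE, edgeR adjusted p = 0.748, DESeq2 adjusted p = 0.160) that became 2.94 without control 1 and 1.63 without control 2. In both genes control 2 lay far below control 1. Neither was called by DESeq2.

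**Figure D2:**
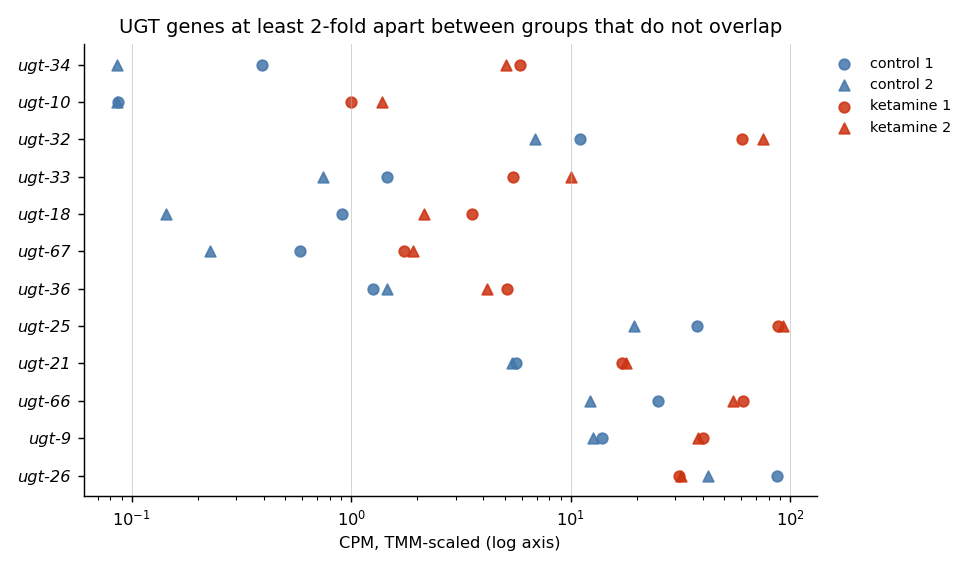
TMM-scaled CPM (x axis, log scale) of the 12 UGT genes at least 2-fold apart between groups that did not overlap (rows), with 1 point per library: control in blue, ketamine in red, circles for replicate 1 and triangles for replicate 2. In 11 rows the red points lie to the right of the blue ones, from 0.0857 CPM in *ugt-34* control 2 up to 93.3 CPM in *ugt-25* ketamine 2, and in *ugt-26* they lie to the left.

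The difference between the controls had a direction within the family. Control 1 was higher than control 2 in 50 of the 64 tested members (78.1%) and in 10 of the 11 higher genes, whereas 49.6% of all tested genes were higher in control 1. The median log2 difference between control 1 and control 2 was 0.32 over the members and 0.95 over the 11 genes, beside 0.00 over all tested genes. Between the ketamine libraries the corresponding medians were −0.09 and −0.05. In 10 of the 11 genes control 1 thus lay between control 2 and the ketamine libraries. The intestine markers *ges-1*, *elt-2*, *asp-1*, *ifb-2* and *act-5* together had a summed CPM of 1074 in control 1 and 2340 in control 2, beside 2283 and 2375 under ketamine. Most of the sum came from *asp-1* (737.7 and 1639 CPM in the controls) and *act-5* (165.9 and 523.7), whereas *ifb-2* was at 126.6 and 123.7 CPM against 101.7 and 94.1. None of the 5 markers was at 0 in any library, and their log2 fold changes ran from −0.35 to 0.51. Their part in the UGT values was not tested.

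Leaving out a library changed the calls. In these fits a group of 1 library is assumed to vary like the other group. Without control 1, edgeR called 11 members higher (0.646% of all tested genes), which were *ugt-9*, *ugt-14*, *ugt-18*, *ugt-21*, *ugt-25*, *ugt-32*, *ugt-33*, *ugt-34*, *ugt-36*, *ugt-66* and *ugt-67*, and 0 lower (0.291%). Without control 2 it called the 11 higher genes named at the outset (10.9% of all tested genes) and *ugt-4*, *ugt-26*, *ugt-47* and *ugt-51* lower (4.29%). Without ketamine 1 it called 0 members in each direction (0.146% of all tested genes higher and 0% lower), and likewise without ketamine 2 (0.133% and 0%). The log2 fold changes of the 11 genes stayed above 1 in each of these fits. Without control 1 they were 3.28 for *ugt-32*, 3.35 for *ugt-33* and 1.64 for *ugt-36*. *ugt-14*, at 0.98 with all libraries, was at 1.47 without control 1. *ugt-4* and *ugt-51*, at −0.64 and −0.63 with all libraries, were at 0.10 and −0.05 without it.

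**Figure D3:**
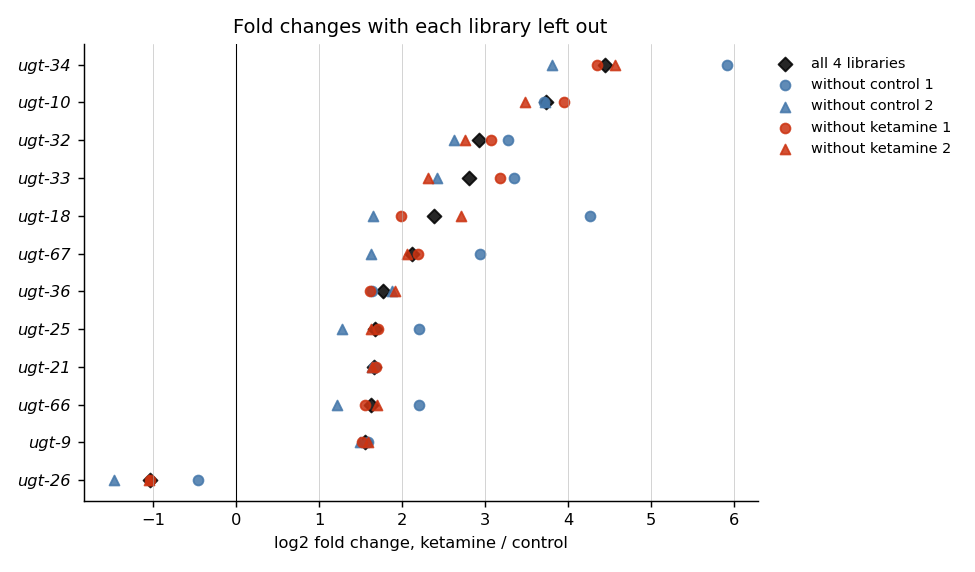
Log2 fold change (ketamine over control, x axis) of the same 12 UGT genes (rows) from all 4 libraries (black diamonds) and with each library left out (blue circle, without control 1; blue triangle, without control 2; red circle, without ketamine 1; red triangle, without ketamine 2). Every point of the 11 higher genes lies above 1, the widest range is that of *ugt-18*, from 1.65 to 4.26, and *ugt-26* ranges from −1.47 to −0.46.

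On the lower side the differences were smaller. *ugt-26* (C10H11.6, I:4721178-4723960, plus strand) was at 87.4 and 42.4 CPM in the controls against at 31.3 and 31.7 CPM under ketamine. The controls were further from each other than control 2 was from ketamine, and the ketamine libraries were nearly equal. The log2 fold change was −1.04 ± 0.37 (SE, edgeR adjusted p = 0.748, DESeq2 adjusted p = 0.453), and it was −0.46 without control 1 and −1.47 without control 2. By FPKM *ugt-26* ranked 3 and 12 in the controls against 20 and 19 under ketamine.

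*ugt-47* (R04B5.9, V:10096305-10098594, minus strand) followed, at 107.5 and 62.1 CPM against 43.2 and 47.4 CPM. Both ketamine libraries were below both controls, and the log2 fold change of −0.90 ± 0.30 (SE, edgeR adjusted p = 0.748) did not reach 2-fold with all libraries. It was −0.48 without control 1. At an unadjusted p under 0.05 and any fold, edgeR placed 4 members lower (6.25%, against 3.32% of all tested genes) and 13 higher (20.3%, against 2.77%).

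The members most abundant in the controls were, with one exception, within 1.5-fold. *ugt-22* (C08F11.8, IV:13639266-13644401, plus strand) ranked first in every library, at 92.3 and 91.6 FPKM in the controls against 71.4 and 96.1 FPKM under ketamine. Its groups overlapped, with a log2 fold change of −0.14 ± 0.19 (SE). The second was *ugt-47*, described above.

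*ugt-64* was at 43.99 and 51.4 FPKM against 55.5 and 54.7, with a log2 fold change of 0.21 ± 0.16 (SE). *ugt-44* was at 35.9 and 47.8 FPKM against 47.8 and 55.1 (log2 fold change 0.30 ± 0.21 SE), and *ugt-58* was at 41.4 and 39.3 FPKM against 37.7 and 37.5 (log2 fold change −0.10 ± 0.15 SE). All 3 differences were smaller than 1.5 standard errors. The member with the log2 fold change nearest to 0, among those with a mean count of at least 50, was *ugt-2* (−0.01 ± 0.26 SE), at 9.52 and 9.06 CPM in the controls against 10.7 and 7.76 CPM under ketamine.

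The summed FPKM of the 67 genes overlapped between the groups, at 898 and 756 in the controls against 848 and 912 under ketamine. The 11 higher genes summed to 58.4 and 35.4 FPKM against 173.5 and 182.7, and the other 56 to 840 and 721 FPKM against 674 and 729. The 11 higher genes were chosen for being higher in these same libraries, so the rise of their sum follows from that choice. They made up 6.501% and 4.679% of the sum of all 67 in the controls and 20.47% and 20.04% under ketamine. Their median control level was 0.84 FPKM, beside 7.83 FPKM in the other 56 members, and control means over the family ran from 0.0529 to 91.9 FPKM.

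**Figure D4:**
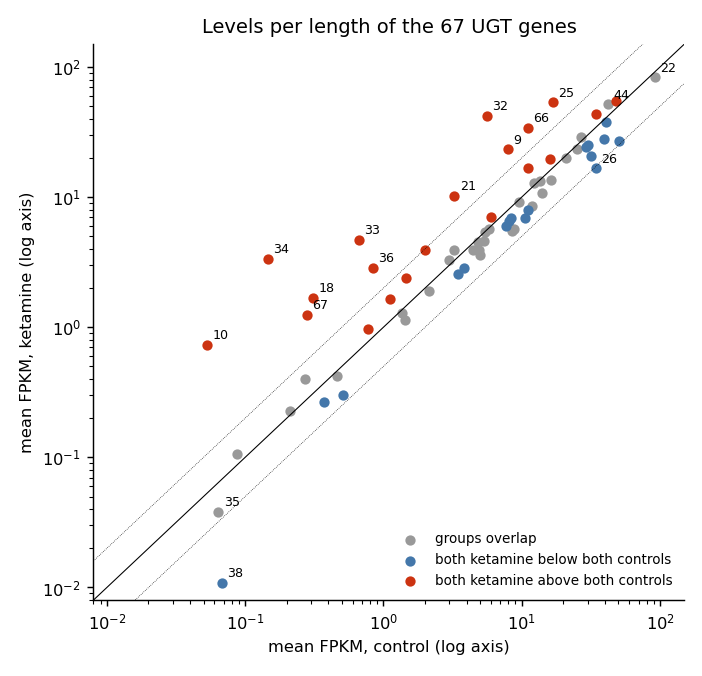
Mean FPKM of each of the 67 UGT genes in the 2 control libraries (x axis) and in the 2 ketamine libraries (y axis), both on log scales, with equality as a solid line and 2-fold as dotted lines; colours give the order of the libraries as in the plot of fold changes. The red points far above the line lie at low and middle control levels, and *ugt-22*, the most abundant member at 91.9 FPKM in the controls, lies close to it.

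The genome positions (WBcel235, from the count table) put 42 of the 67 members on chromosome V, 12 on IV, 5 on I, 4 on X, 3 on III and 1 on II. Grouping members at most 20 kb apart gave 11 clusters with 37 members. Of the 11 higher genes 8 were on chromosome V and 7 were in clusters, and the other 4, *ugt-32*, *ugt-33*, *ugt-66* and *ugt-21*, had no other member within 20 kb. The share in clusters was 63.6%, beside 55.2% of all members. H10D18.6 (V:3838744-3840838, minus strand), a row with the UDPGT label but no ugt symbol, does lie within 20 kb of *ugt-32*. It had 21 and 7 counts in the controls against 21 and 16 under ketamine (log2 fold change 0.81 ± 0.56 SE).

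The largest cluster held 8 members in 24.3 kb (V:4887173-4911458), in the order *ugt-12*, *ugt-11*, *ugt-9*, *ugt-10*, *ugt-67*, *ugt-8*, *ugt-14* and *ugt-13*. The 3 higher genes *ugt-9*, *ugt-10* and *ugt-67* were adjacent in its middle, with *ugt-9* on the plus and *ugt-10* on the minus strand 254 bp apart and pointing at each other. The next genes on the right, *ugt-8* and *ugt-14*, also had both ketamine libraries above both controls but were less than 2-fold higher. *ugt-8* was at 20.05 and 17.95 CPM against 29.01 and 27.91 CPM (log2 fold change 0.58 ± 0.20 SE), and *ugt-14* had 198 and 81 counts against 218 and 193, with a log2 fold change of 0.98 ± 0.37 (SE), just inside 2-fold.

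The outer members of this cluster lay on the other side of 0. *ugt-11*, which borders *ugt-9* on the left at a distance of 976 bp, was at 10.4 and 8.54 CPM against 7.16 and 9.11 CPM (log2 fold change −0.22 ± 0.26 SE). *ugt-12* and *ugt-13*, at the 2 ends, had log2 fold changes of −0.25 and −0.28. Both ketamine libraries thus lay above both controls in a run of 5 neighbouring genes and not in the 3 genes around it. This order was met by 31.2% of the tested members and by 23.1% of all tested genes. Whether position plays a part was not tested.

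The cluster on chromosome I (I:4721178-4735279, 14.1 kb) held 4 members, all on the plus strand, in the order *ugt-26*, *ugt-27*, *ugt-28* and *ugt-25*. The lowest and one of the highest members of the family stood at its 2 ends, *ugt-26* at −1.04 and *ugt-25* at 1.67. Between them, *ugt-27* was low in every library (28 and 21 counts against 15 and 12, log2 fold change −0.49 ± 0.42 SE). *ugt-28* had overlapping groups at 29.1 and 18.1 CPM against 23.8 and 22.1 CPM (log2 fold change −0.04 ± 0.29 SE).

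On chromosome V a further cluster spanned 29.7 kb (V:7139483-7169205) with *ugt-40*, *ugt-37*, *ugt-38*, *ugt-39*, *ugt-41* and *ugt-36*, and 6 other protein-coding genes lie within it. *ugt-36*, at its right end, was the only member there at least 2-fold higher. The nearest member, *ugt-41*, 3413 bp away on the opposite strand, was at 69.1 and 46.7 CPM against 39.0 and 36.2 CPM (log2 fold change −0.62 ± 0.24 SE, edgeR adjusted p = 0.748). Without control 1 the log2 fold change of *ugt-41* was −0.34. The pair, with *srh-83* between them, thus had ketamine libraries on opposite sides of the controls.

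Elsewhere, single higher genes stood beside members that were hardly detected or had similar levels in both groups. *ugt-34* lies 158 bp from *ugt-35* on the same strand, and *ugt-35* had 9 and 1 counts in the controls against 1 and 3 under ketamine, too few to be tested. *ugt-18* lies 2267 bp from *ugt-16*, which was at 11.76 and 10.03 CPM against 12.68 and 12.74 CPM (log2 fold change 0.22 ± 0.22 SE). The third gene of that cluster, *ugt-15*, was not tested (10 and 3 counts against 3 and 8), and neither was *ugt-38* (6 and 3 counts against 0 and 1).

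**Figure D5:**
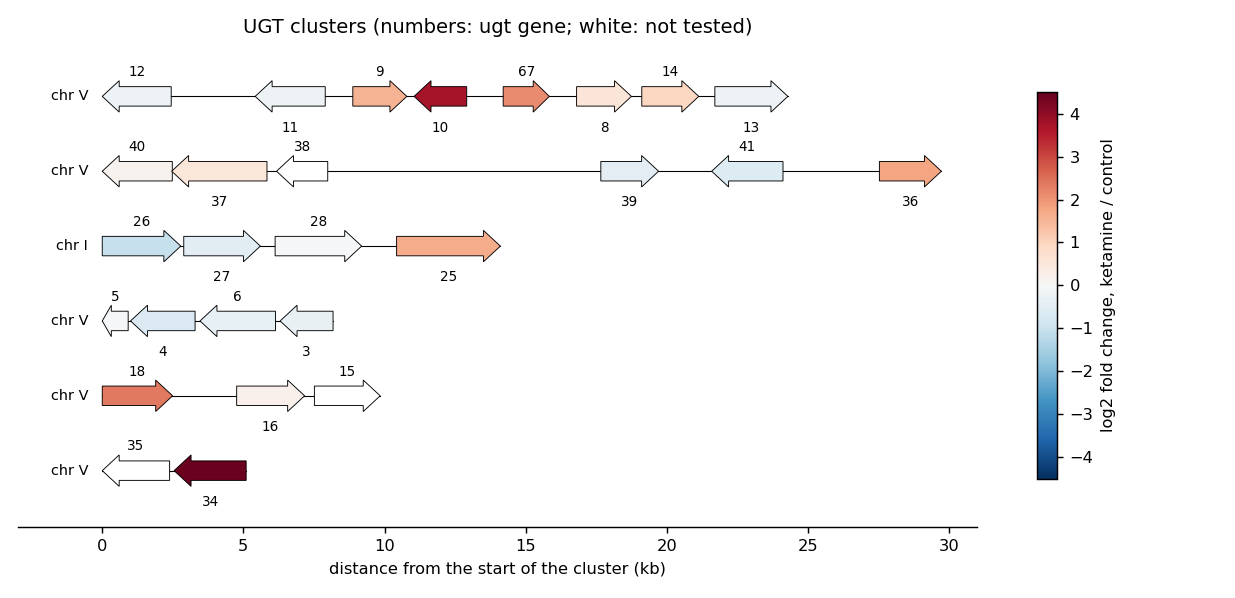
Map of 6 UGT clusters, each row 1 cluster with its chromosome, x axis the distance in kb from the cluster's start; arrows show each gene's extent and strand, numbers the ugt gene, and colour the log2 fold change (red, higher under ketamine; blue, lower; white, not tested). In the first row *ugt-9*, *ugt-10* and *ugt-67* are adjacent red arrows, and in the third row the bluest arrow, *ugt-26* (−1.04), and a red one, *ugt-25* (1.67), lie at opposite ends.

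The other 6 clusters held no member at least 2-fold higher. The cluster of *ugt-5*, *ugt-4*, *ugt-6* and *ugt-3* (V:12792018-12800193) had log2 fold changes from −0.64 to −0.05. The pairs *ugt-19* and *ugt-20*, *ugt-43* and *ugt-44*, *ugt-47* and *ugt-17*, *ugt-1* and *ugt-2*, and *ugt-55* and *ugt-56* ran from −0.90 in *ugt-47* to 0.33 in *ugt-55*. The sequences of neighbouring UGT genes can be alike, and the sources used here do not say how reads matching several copies were counted, so values of neighbours may share reads.

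Overlapping annotation touched some members. A gene on the opposite strand overlaps 13 of the 67, and one on the same strand overlaps 8. The libraries were made with a stranded kit, and the strand setting of the counting is not given in the sources used here. Of the 11 higher genes only *ugt-10* is among the overlapped, by a non-coding RNA with 0 counts in the table.

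Genes that act with the UGTs were followed from lists. Of 18 genes that make UDP-sugars or carry nucleotide sugars across membranes, 15 were tested, and edgeR called 0 higher and 0 lower, as did DESeq2. Over all tested genes edgeR called 0.095% higher and 0% lower, and DESeq2 0.69% and 0.146%. Their median log2 fold change was −0.07. The exception in size was *nstp-3*, of the nucleotide sugar transporter family, which had 8 and 3 counts in the controls against 19 and 13 under ketamine (log2 fold change 1.90 ± 0.59 SE, edgeR adjusted p = 0.748), and it was the only gene of the list with an unadjusted p under 0.05 and at least 2-fold. It passed the count filter through the ketamine libraries alone. Among all tested genes, edgeR placed 2.05% at least 2-fold higher at an unadjusted p under 0.05. *sqv-4*, which encodes the UDP-glucose dehydrogenase that makes UDP-glucuronic acid, had overlapping groups (log2 fold change −0.21 ± 0.25 SE), and the lowest member was *sqv-7* at −0.34.

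The 8 multidrug resistance-associated (mrp) ABC transporters, a family that exports conjugates from cells, had a median log2 fold change of −0.03, from −0.43 in *mrp-3* to 0.26 in *mrp-7*. Among 12 regulators of xenobiotic genes the median was 0.09, from −0.63 in *ahr-1*, the aryl hydrocarbon receptor, to 0.29 in *elt-2*, the intestinal GATA factor. *skn-1*, a transcription factor of the detoxification response, was at 0.19 ± 0.14 (SE). In both lists edgeR called 0 genes in either direction, at an adjusted or an unadjusted p under 0.05 with at least 2-fold, and DESeq2 also called 0. Over all tested genes, edgeR's shares were 0.095% higher and 0% lower adjusted, and 2.05% and 1.63% unadjusted. Those of DESeq2 were 0.69% and 0.146%. Counts of 0 in lists this small therefore say little about these genes.

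Markers of other tissues in whole animals also differed between libraries. The 6 vitellogenin (yolk) genes of the adult intestine summed to 42802 and 76851 CPM against 65146 and 65033. The most abundant of them, *vit-6* and *vit-2*, had overlapping groups and log2 fold changes of 0.39 and 0.34. *vit-1* (−1.18), *vit-3* (−1.03) and *vit-4* (−0.57) had both ketamine libraries below both controls. At least 2-fold and with an unadjusted p under 0.05, edgeR gave *vit-1* and *vit-3* lower, and DESeq2 called *vit-3* (adjusted p = 0.044). Over all tested genes the corresponding shares were 1.63% lower in edgeR and 0.146% lower in DESeq2.

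The 5 epidermis markers summed to 313 and 1566 CPM against 882 and 739, and 4 of them, all but *col-19*, had both ketamine libraries above both controls, with a median log2 fold change of 1.54 for the list. The 3 excretory canal markers summed to 351 and 260 CPM against 176.1 and 191.6, with both ketamine libraries below both controls in each. Among all tested genes, 20.6% had that order. The part of these tissue markers in the UGT values was not tested.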

How the data were processed

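RNA of whole animals was sequenced as paired-end reads after stranded mRNA library construction. The authors aligned the reads to WBcel235 with HISAT2 2.0.5, assembled them with StringTie 1.3.3b, counted them per gene with featureCounts 1.5.0-p3 and deposited raw counts without normalization. The deposited FPKM of each member was its count over gene length and over 46.6 M (control 1), 35.5 M (control 2), 34.4 M (ketamine 1) or 29.2 M (ketamine 2). Control columns carry the name of the wild type and a number, by which they were assigned. A WormBase gene was found for 46183 of 46643 rows through annotated transcripts.

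edgeR 4.0.16 (R 4.3.3) compared ketamine with control after TMM scaling by its quasi-likelihood test over the 15793 genes that reached 10 counts in 2 libraries, with Benjamini-Hochberg adjustment, a gene being called from 2-fold and under an adjusted p of 0.05. The study used DESeq2 with these thresholds and reported more genes in each direction than the 109 higher and 23 lower that DESeq2 called here. The UGT calls by DESeq2 are therefore those of the fit here, not the study's. What made the numbers differ was not tested. The SE is the log2 fold change over the root of the F statistic. Alternatives were DESeq2 1.42.0, limma 3.58.1 on log2(FPKM + 1) and log2(FPKM + 0.1), other scaling and filters, protein-coding genes alone, the replicate block and leaving out each library. Fits were tested on counts simulated with the median spread fitted to these data, at an adjusted p under 0.05. There edgeR recovered 7% of 2-fold and 91% of 4-fold changes, and DESeq2 21% and 95%. Changes were planted only in genes with a mean of at least 50 counts. Every simulated gene had the same spread, and no simulated library stood apart as control 1 does. These shares therefore do not describe members such as *ugt-10* and *ugt-67* (mean counts 20.25 and 37.25), or genes whose controls differ widely. Of the simulated calls, 1 of 99 by edgeR and 10 of 126 by DESeq2 were of unchanged genes. Intervals cover counting error only.

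Members are named that either tool called, that were at least 2-fold apart without overlap, that had the 5 highest control FPKM or the log2 fold change nearest to 0, or that border a higher or lower member in a cluster; others, listed by cluster or by a fit without 1 control, were named after their values were seen. The members and lists were chosen with earlier results of these data known. *gusb-1*, a list of its own for glucuronide hydrolysis, was not matched to a row. Body wall muscle, pharynx, neuron, sperm, oocyte and adult cuticle markers had median log2 fold changes of −0.38, −0.60, 0.07, −0.39, 0.29 and 0.88. Sequences were not analysed here.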

Additional observations from a re-analysis of the deposited data

How the results depend on the processing

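With 2 libraries per group, the calls depended on the test and on single libraries. Against 0 UGT genes called higher by edgeR, DESeq2 called 9, edgeR without a count filter called 7 (*ugt-9*, *ugt-10*, *ugt-21*, *ugt-25*, *ugt-32*, *ugt-33* and *ugt-34*, beside 0.296% of all genes fitted), and an unadjusted p gave 11 higher and 1 lower. Leaving out 1 library gave 0 to 11 genes higher and 0 to 4 lower, and a median log2 fold change of −0.15 to 0.07, the highest without control 1. Other scaling factors, a minimum of 50 counts and protein-coding genes alone gave 0 UGT calls in each direction. So did scaling without the 20 most abundant genes and limma on FPKM. The share of all genes that these fits called is not given here, so their 0 is no result about the UGT genes alone. In the main fit that share was 0.095% higher and 0% lower. Each fit other than that without control 1 had a median log2 fold change of the members under 0. In limma on log2(FPKM + 1), whose pseudocount shrinks low genes, 2 of the 11 higher genes were under 2-fold (*ugt-10*, 0.71, and *ugt-67*, 0.82), and with each other alternative every one of the 11 that was fitted stayed above 2-fold. The cause of these differences was not tested. With 1 library left out, the log2 fold change ran from −0.34 to 0.31 for *ugt-28*, positive when control 1 (0.31) or ketamine 2 (0.01) was absent, from −0.26 to 0.20 for *ugt-2*, which was 0.00 with control 1 absent and 0.20 with ketamine 2 absent, and from −0.37 to 0.06 for *ugt-22*, positive with ketamine 1 absent. Clusters numbered 11 with gaps of 10, 20 or 50 kb, holding 37, 37 and 40 members. Counts of under 20 in the controls of *ugt-10* and *ugt-34* limit the precision of their fold changes.

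With the replicate number as a block, edgeR called 2 members higher (*ugt-32* and *ugt-34*, beside 0.215% of all tested genes) and 0 lower, with a median log2 fold change of −0.06. Same-numbered libraries deviated together at a correlation of 0.0486 over 15793 genes. The labels give no culture or day, so whether same-numbered libraries shared either is not known.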

Other observations

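Outside the 67 members, 8 rows of the table carried the UDPGT label without a ugt symbol, and 7 of them were tested. They are named here after their values were seen. AC3.9, annotated as a pseudogene on chromosome V (V:10374851-10376884) next to *ugt-49*, had 1 and 2 counts in the controls against 37 and 38 under ketamine, a scaled count ratio of 32.2 (exact 95% interval 10.6 to 160, counting error only). Its fitted log2 fold change was 4.88 ± 0.62 (SE), with an adjusted p of 0.209 in edgeR and 0.0015 in DESeq2, and it passed the count filter through the ketamine libraries alone. The log2 fold change of AC3.9 was 4.28 without control 1 and 5.58 without control 2. F54C1.1 went the other way, with 197 and 38 counts against 30 and 15 (log2 fold change −1.93 ± 0.76 SE, edgeR adjusted p = 0.748), and the value was −0.64 without control 1 and −2.59 without control 2. The other 5 tested rows had log2 fold changes from −0.20 to 0.81.

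Within the cluster from *ugt-40* to *ugt-36*, F10D2.8 (V:7150223-7150692), a protein-coding gene without the UDPGT label, had 18 and 9 counts in the controls against 148 and 210 under ketamine. Its log2 fold change was 4.13 ± 0.46 (SE), with an adjusted p of 0.153 in edgeR and 4.1e-11 in DESeq2. *fat-7*, a stearoyl-CoA desaturase gene in the same cluster, was at 43.8 and 21.5 CPM against 23.6 and 13.0 CPM (log2 fold change −0.84 ± 0.46 SE). T19H12.2, the one other protein-coding gene inside the cluster from *ugt-12* to *ugt-13*, was at 428 and 422 CPM against 461 and 450 CPM (log2 fold change 0.10 ± 0.15 SE). Both ketamine libraries were above both controls here too, by less than 1.5-fold.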
